A study of Mus musculus with 40 samples.

Results

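Genetic and pharmacological stimulation of brown adipose tissue (BAT) were compared in mice fed a high fat diet (HFD), gene by gene, by subtracting the effect of an injected agonist from the effect of a transgene. The comparison used 20 of the 40 libraries of the series, 5 in each of 4 groups. The C-3BO mice overexpress Gpr3 from a transgene at Rosa26 behind the CAG promoter, which Ucp1-Cre switches on in brown and beige adipocytes from early life on. Their control littermates lacked this combination of alleles, and neither group was injected. Both were 13 to 19 weeks old. The second cohort consisted of 15-week-old mice labelled wildtype, which were control littermates of another Gpr3 line, and received CL-316,243 (CL) at 1 mg/kg or saline at 10 µL/g once a day for 9 days. All mice were male, were housed at 29 ± 1 °C after 2 to 3 weeks of acclimation, and ate a diet with 60 kcal% fat for 7 days. In the injected mice the first 2 injection days preceded the change of diet. Poly(A) RNA was sequenced, and values are counts on the exons of RefSeq genes. In the CL study tissue was taken 1 day after the last CL injection, a time the paper chose to look at chronic rather than acute effects. Each effect was taken within its own cohort. Cohort, age, injection, the length of stimulation and the time since the last dose thus cannot be told apart from the kind of stimulation.

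Brown adipocytes burn fat and glucose to make heat when the Gs protein raises cAMP and activates protein kinase A. Noradrenaline acts through β-adrenergic receptors, and CL is a selective agonist of the β3 receptor, Adrb3. GPR3 is a Gs-coupled receptor that signals without an added ligand, so that its activity follows its abundance. Stimulated BAT can also remodel its blood vessels and recruit new adipocytes from precursor cells.

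The 20 HFD libraries held 849126 to 13461733 counts. A level of 3 counts, taken as the lowest that the depth shows, corresponded to 0.22 to 3.26 counts per 1000000 (CPM), with saline replicate 4 the shallowest, and covers counting error only. Transcripts of liver and epididymis set some libraries apart. Alb, which encodes albumin, was at 0.294 to 1.03 CPM in control mice and at 1.41, 0.584 and 1.65 CPM in C-3BO replicates 1 to 3. It was at 304 and 284 CPM in C-3BO replicates 4 and 5, at 67.4 to 183 CPM in saline mice and at 104 to 201 CPM in CL mice. Lcn8, an epididymal lipocalin, had no counts in control mice and C-3BO replicates 1 to 3 and reached 40.2 and 36.2 CPM in C-3BO replicates 4 and 5. Both injected groups carried these transcripts, whereas the C-3BO cohort carried them in 2 treated mice and in no control mouse, and the counts of called genes are also given without C-3BO replicates 4 and 5. Skeletal muscle transcripts peaked in saline replicate 3, with Myoz1 at 32.4 CPM. The brown adipocyte marker Ucp1 was at 2484 CPM or more in every HFD library.

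Gpr3 (RefSeq NM_008154, minus strand of chromosome 4 from 132765255 to 132768451, mm9) was checked first. It was at 715, 875, 734, 827 and 961 CPM in C-3BO mice, against 0.306, 0.657, 0.0734, 0.234 and 0.517 CPM in control mice. With CL it was at 1.24, 0.722, 0, 1.05 and 0.195 CPM, and with saline at 0.443, 0.34, 0.522, 0 and 0.511 CPM. Every C-3BO library lay far above all others, and the injected groups overlapped. The C-3BO effect was 11.21 on the log2 scale (SE 0.24, edgeR adjusted p = 2.55e-20) and the CL effect 0.66 (SE 0.56, adjusted p = 0.415). Endogenous transcript and transgene are not separable in these counts.

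The heat production genes Ucp1, Dio2 and Elovl3 rose in both treatments. The differences between their rises were not called, which does not show that the rises were equal. Ucp1, the uncoupling protein, was at 2733, 2853, 5617, 9951 and 4927 CPM in control mice and at 12820, 15590, 13940, 16330 and 14050 CPM in C-3BO mice. In the injected cohort it was at 3038, 3287, 2484, 2731 and 4127 CPM with saline and at 11840, 10590, 10460, 8852 and 9870 CPM with CL. All treated mice lay above all of their own controls. The rise was 1.48 in C-3BO mice and 1.72 with CL, and the difference was -0.24 (SE 0.33, 95% interval -0.93 to 0.45, edgeR adjusted p = 0.818). Dio2, which converts thyroxine to its active form, rose by 2.62 and 2.19, with a difference of 0.43 (SE 0.41, 95% interval -0.41 to 1.27, adjusted p = 0.709). Elovl3, an elongase of very long chain fatty acids, rose by 6.76 and 5.46. Its difference of 1.30 (95% interval -0.19 to 2.8) had an adjusted p of 0.434. Ppargc1a, a coactivator of mitochondrial genes, passed the test in neither effect and had a difference of 0.19 (95% interval -0.33 to 0.71). Fgf21, a hormone of stimulated brown fat, had at most 12 counts in any HFD library and was not tested.

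Of 26 tested genes on a list of thermogenic genes, 14 rose and 3 fell in C-3BO mice, beside 18.3% and 20% of all genes. With CL 12 of the list rose and 2 fell, beside 12.9% and 12.7% of all genes. None had a called difference between the effects in edgeR, DESeq2 or limma, and 1 had an unadjusted p under 0.05 in edgeR. Their median difference was 0.12, beside 0.0006 over all genes tested. Adrb3, the receptor of CL, had a difference of 0.73 (95% interval 0.05 to 1.40, edgeR adjusted p = 0.297), and Adrb1, the other main β receptor of brown fat, one of 0.17 (95% interval -0.42 to 0.77, adjusted p = 0.857).

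Over all 12388 genes tested, 2269 rose (18.3%) and 2474 fell (20%) in C-3BO mice, and 1599 rose (12.9%) and 1576 fell (12.7%) with CL. Both effects passed for 2252 genes, 2192 of them in the same direction. Across genes, which are not independent replicates, the effects had a Pearson r of 0.592 and a Spearman rho of 0.632. The difference of differences, (C-3BO minus control) minus (CL minus saline), was called at an edgeR adjusted p under 0.05 for 273 genes. The C-3BO effect was the larger for 86 genes (0.694%) and the smaller for 187 (1.51%), larger and smaller meaning the sign of the difference, and 1800 genes had an unadjusted p under 0.05. Such p-values measure the spread between these mice. A size over 1 on the log2 scale was reached by 55 of the larger and 95 of the smaller differences.

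Without C-3BO replicates 4 and 5, 12777 genes were tested and 48 larger (0.376%) and 91 smaller (0.712%) differences were called. Of the 273 genes, 122 were also called there, 43 larger and 79 smaller. Selection on the difference favours opposite effects, so a split of the called genes by direction only describes them. Of the 79 with a smaller effect in both fits, 42 fell in C-3BO mice and rose with CL. Another 26 passed only as a fall in C-3BO mice, 10 passed only as a rise with CL and 1 fell in both. Among all 12388 tested genes 53 fell in C-3BO mice and rose with CL and 7 did the reverse, all with a called difference. Among the 43 with a larger effect, 21 passed only as a rise in C-3BO mice, 10 only as a fall with CL, 7 rose in both, 4 rose in C-3BO mice and fell with CL, and 1 fell in both.

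**Figure D1:**
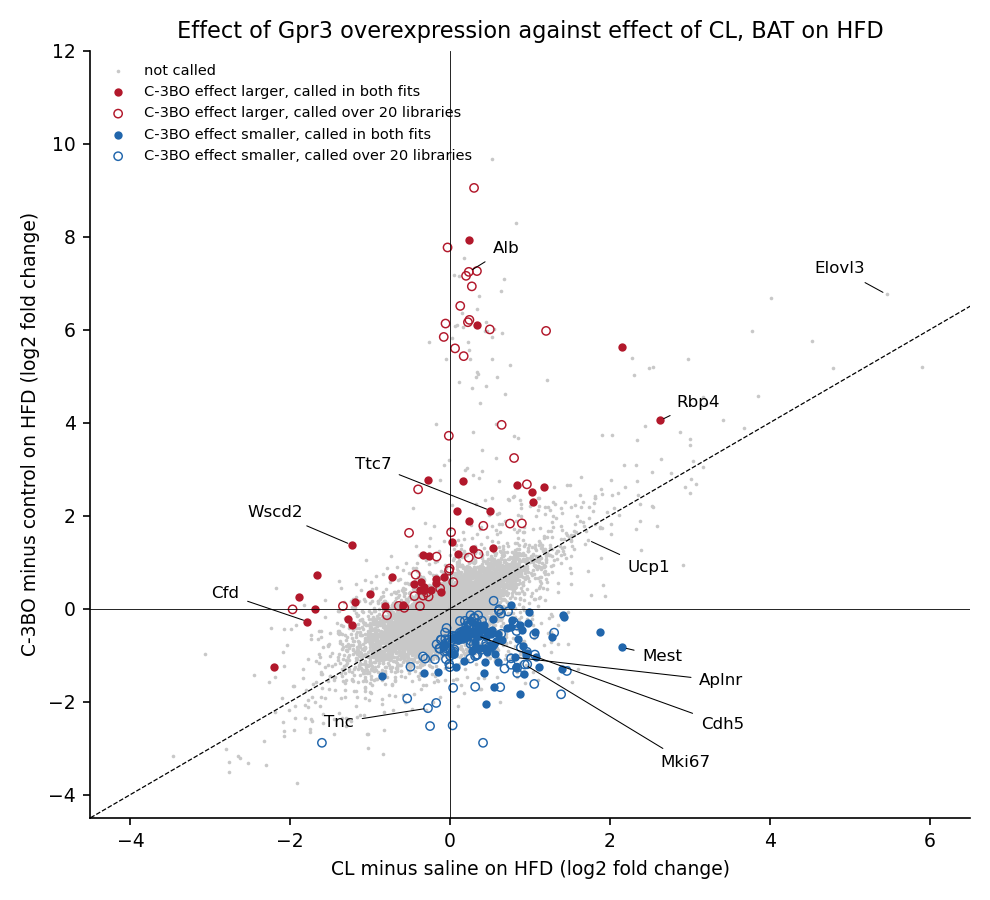
Each point is 1 of the tested genes except Gpr3, with the CL minus saline log2 fold change on the horizontal axis and the C-3BO minus control log2 fold change on the vertical axis, and the dashed line marks equal effects. Filled points were called with and without C-3BO replicates 4 and 5 and open points only over all 20 libraries, red for a larger and blue for a smaller C-3BO effect; Ucp1 lies near the line, whereas the blue points gather below 0 on the vertical axis and right of 0 on the horizontal axis.

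Some genes of blood vessels fell in C-3BO mice and rose with CL. Aplnr (NM_011784, chromosome 2, from 84976517 to 84980080), the apelin receptor of endothelial cells, was at 268, 329, 274, 218 and 231 CPM in control mice and at 128, 122, 144, 122 and 122 CPM in C-3BO mice. In saline mice it was at 145, 156, 135, 194 and 149 CPM, and in CL mice at 210, 240, 262, 332 and 310 CPM. All C-3BO mice lay below all control mice, and every CL mouse exceeded every saline mouse. All control mice also lay above all saline mice, and what this gap adds to the difference was not tested. Aplnr fell by 1.05 in C-3BO mice and rose by 0.82 with CL, a difference of -1.87 (SE 0.18, edgeR adjusted p = 1.61e-06). Without C-3BO replicates 4 and 5 the difference was -1.80 (adjusted p = 7.57e-05). In bulk tissue, fewer cells of a type and less RNA in each cell cannot be told apart.

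Cdh5, the cadherin that joins endothelial cells, was at 795, 835, 759, 608 and 671 CPM in control mice and at 521, 544, 480, 431 and 478 CPM in C-3BO mice. With saline it was at 501, 490, 510, 547 and 508 CPM and with CL at 586, 614, 554, 778 and 683 CPM. Again neither pair of groups overlapped, and all control mice lay above all saline mice. The difference of Cdh5 was -0.91 (SE 0.14, adjusted p = 0.000865). Pecam1, the endothelial adhesion molecule CD31, had a difference of -0.81 (SE 0.15, adjusted p = 0.00498), with all C-3BO mice at 250 to 287 CPM and all control mice at 290 to 435 CPM.

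Of a list of 14 endothelial genes, 6 had a called smaller C-3BO effect (Cdh5, Esam, Pecam1, Robo4, Emcn and Tie1) and none a larger one. All 14 differences lay below 0 with TMM scaling, 13 with RLE factors, and the median was -0.62. In C-3BO mice 10 of the 14 fell, beside 20% of all genes, and with CL 3 rose, beside 12.9%. Kdr, the main receptor for vascular endothelial growth factor, had a difference of -0.32 (adjusted p = 0.148). Without C-3BO replicates 4 and 5, 4 of the list were called (Cdh5, Esam, Pecam1 and Tie1) and the median was -0.63. The summed level of the list was 2537 to 3375 CPM in control mice, 2099 to 2335 in C-3BO mice, 2097 to 2340 in saline mice and 2338 to 3053 in CL mice. C-3BO and saline mice thus covered nearly the same range, and all control mice lay above all saline mice. What this gap between the control groups adds to the difference was not tested.

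Vash1 and Pcdh17 were named for the size of a smaller C-3BO effect and Cd34 as a called member of a list of fibroblast and mesothelial genes, so that their shared sign adds nothing to the endothelial list. Cd34, a sialomucin of endothelial and progenitor cells, was at 47.6 to 58.8 CPM in C-3BO mice and 68.3 to 154 CPM in control mice, and at 139 to 218 CPM with CL against 91.5 to 155 CPM with saline. Its difference was -1.75 (SE 0.25, edgeR adjusted p = 0.000456). Cd34 was the only edgeR call among 9 tested fibroblast and mesothelial genes. Of their differences 3 lay below 0 and 6 above, and the median was 0.11. Vash1, a secreted inhibitor of angiogenesis made by endothelial cells, was at 50.7 to 70.4 CPM with CL and 19.7 to 30.5 CPM with saline, with a difference of -1.89 (adjusted p = 0.000313). Pcdh17, a protocadherin of cell contacts, fell by 0.96 and rose by 0.96, a difference of -1.92 (SE 0.20, adjusted p = 8.17e-06). Its mean was 31.1 CPM in control mice and 21.3 CPM in saline mice. Chosen after their values were seen, Cd93, a glycoprotein of endothelial cells, Icam2, an adhesion molecule of endothelium and leukocytes, and Mmrn2, an endothelial matrix protein, had called differences of -1.26, -1.15 and -0.77.

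Basement membrane collagen moved the same way. Col4a1 was at 1357, 1360, 1009, 1064 and 1044 CPM in control mice and at 798, 882, 754, 764 and 703 CPM in C-3BO mice. In saline mice it was at 1219, 1324, 1042, 1471 and 1179 CPM and in CL mice at 1432, 1529, 1669, 1668 and 1675 CPM. C-3BO and control mice did not overlap, and CL and saline mice overlapped through saline replicate 4. The difference was -0.94 (SE 0.15, adjusted p = 0.00107), and its partner chain Col4a2 had -0.77 (SE 0.12, adjusted p = 0.00131). Both were also called without C-3BO replicates 4 and 5. The wider list of 28 collagen and matrix genes had a median of 0.05. Besides both collagen chains, Tnc, the matrix glycoprotein tenascin C, was smaller at -1.86 and Loxl1, which cross-links elastin, was larger at 1.37, and neither was called without C-3BO replicates 4 and 5.

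**Figure D2:**
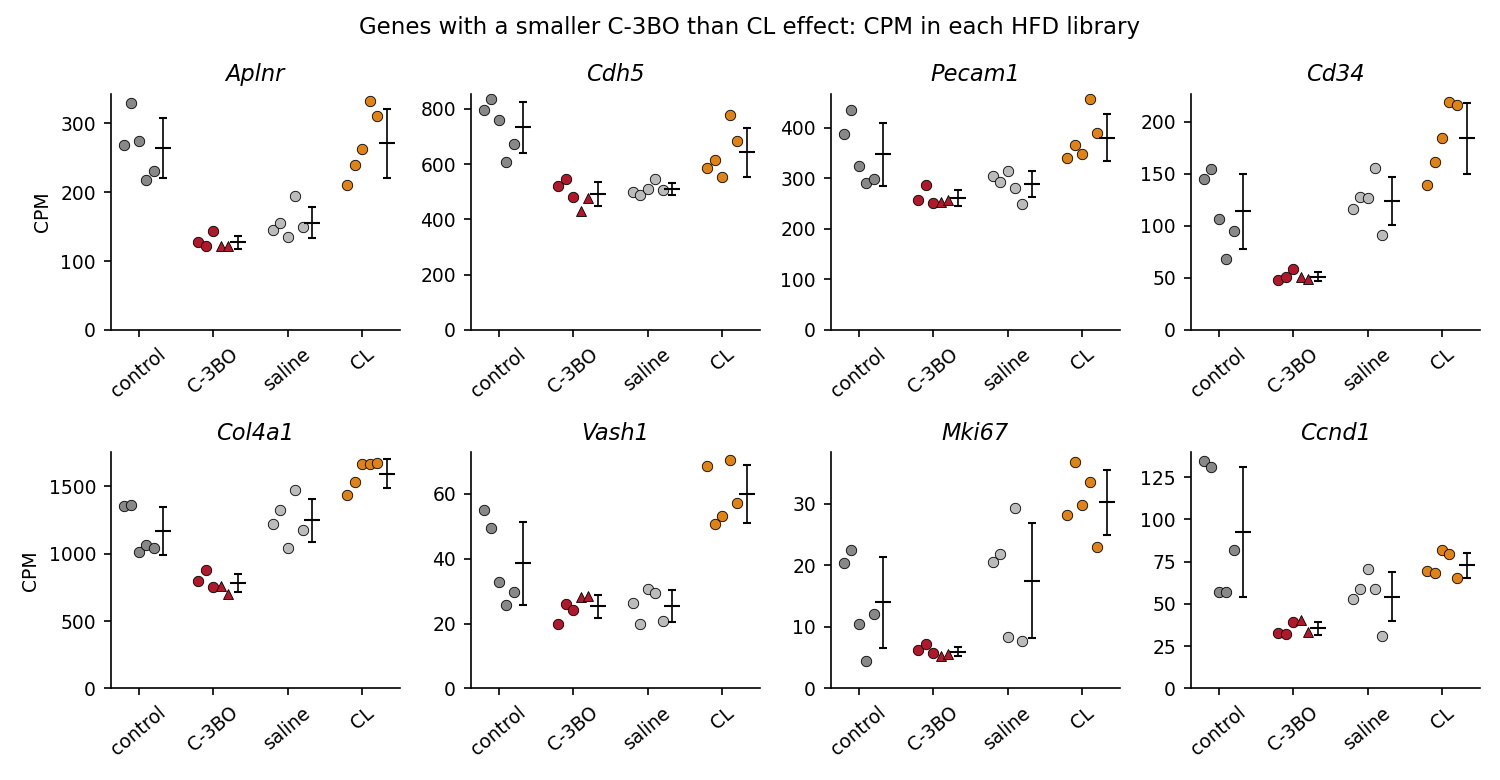
CPM of 8 genes with a smaller C-3BO than CL effect is plotted for each HFD library in the 4 groups, with the mean and SD of 5 mice beside the points and C-3BO replicates 4 and 5 as triangles. For Aplnr, Cdh5 and Pecam1 the C-3BO points lie below all control points and the CL points above all saline points.

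Some genes of cell division fell in C-3BO mice and rose with CL. Mki67, the proliferation antigen Ki-67, was at 20.3, 22.4, 10.5, 4.52 and 12.2 CPM in control mice and at 6.22, 7.24, 5.7, 5.26 and 5.57 CPM in C-3BO mice. With saline it was at 20.5, 21.8, 8.35, 29.3 and 7.67 CPM and with CL at 28.1, 36.8, 29.8, 33.5 and 23 CPM. The groups overlapped through control replicate 4 and saline replicate 4. It fell by 1.20 in C-3BO mice and rose by 0.93 with CL, a difference of -2.13 (SE 0.49, edgeR adjusted p = 0.022), which was -2.04 (adjusted p = 0.0824) without C-3BO replicates 4 and 5.

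Of 29 tested genes on a cell cycle list, 7 had a called smaller C-3BO effect (Mki67, Top2a, Cdc20, Kif11, Tpx2, Rrm2 and Foxm1), 28 differences lay below 0 and the median was -1.32. In C-3BO mice 12 fell, beside 20% of all genes, and 1 rose, the thymidylate synthase Tyms. With CL 9 rose, beside 12.9% of all genes. Without C-3BO replicates 4 and 5, Cdc20, Ccnb2 and E2f1 were called. Leaving out single libraries gave 1 to 10 called genes, with 1 when control replicate 1 or 2 was absent and 10 when control replicate 4 was absent. Summed over the list, the level was 132.2 to 226.7 CPM in control mice, 129.5 to 144.9 in C-3BO mice, 139 to 261.9 in saline mice and 251.7 to 341.5 in CL mice. All C-3BO mice lay below the control mice other than replicate 4, and 1 CL mouse lay within the saline range. Of 62 replication-type histone genes only 8 passed the filter in these poly(A) libraries, and what they show of cell division was not tested. These 8 did not share the fall in C-3BO mice. All 8 rose in C-3BO mice, beside 18.3% of all genes, and 6 rose with CL, beside 12.9%. Their median difference was 0.25, and none was called in edgeR, DESeq2 or limma.

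Rad51ap1, Kif23, Prc1 and Ccnd1, genes of division off that list, were named for the size of a smaller C-3BO effect. Only genes called in both fits could be named so, and their sign and calls thus add nothing to the cell cycle list. Rad51ap1, a protein of DNA repair by recombination, was at 1.64 to 3.29 CPM in control mice and 0.214 to 1.52 CPM in C-3BO mice, and at 2.93 to 7.37 CPM with CL against 1.53 to 2.51 CPM with saline. Neither pair overlapped, and its difference was -2.69 (SE 0.48, adjusted p = 0.00364). Kif23, a kinesin of cytokinesis, had -2.34 (adjusted p = 0.00647), and Prc1, which bundles spindle microtubules, had -2.11 (adjusted p = 0.00476). Ccnd1, the cyclin that drives entry into the cycle, was at 32.2 to 40.6 CPM in C-3BO mice and 57.1 to 135 CPM in control mice, and fell by 1.38. With CL it was at 65.2 to 81.7 CPM against 31 to 70.6 CPM with saline and did not pass the test, and its difference was -1.80 (SE 0.31, adjusted p = 0.00257).

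Mest, an imprinted gene induced as adipocytes expand, had the largest negative difference of the named genes. It was at 16.8, 11.8, 5.95, 6.78 and 7.24 CPM in control mice and at 5.37, 5.84, 4.56, 5.05 and 6.64 CPM in C-3BO mice. With saline it was at 6.2, 8.17, 5.35, 3.26 and 6.13 CPM and with CL at 18.6, 22.4, 25.2, 41.6 and 30.6 CPM. Every CL mouse lay above every mouse of the other groups. Its difference was -2.99 (SE 0.38, edgeR adjusted p = 0.000179), and -3.02 without C-3BO replicates 4 and 5. Fabp5, a fatty acid binding protein, rose with CL and had a difference of -1.08 (adjusted p = 0.0107), with an adjusted p of 0.0558 without those replicates.

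Among smaller effects of other roles, Ptk7, a receptor pseudokinase of Wnt signalling, fell by 1.25 in C-3BO mice and rose by 0.83 with CL. Its starting level differed between cohorts, with means of 8.18 CPM in control mice and 3.62 CPM in saline mice. Cd109, a membrane-anchored binder of TGF-β, fell by 1.26 and rose by 1.11. Serpinb6b, of the serine protease inhibitor family, Clca5, of the chloride channel regulator family, and F2rl3, a thrombin receptor, fell in C-3BO mice and did not pass with CL, with differences of -2.70, -2.50 and -2.24. Serpinb6b and Clca5 were called in 30 of 30 settings of the analysis and F2rl3 in 11 of 30, with an adjusted p of 0.0474 over all 20 libraries and up to 0.112. All C-3BO mice lay below all control mice for Serpinb6b and Clca5, while F2rl3 was at 6 CPM in C-3BO replicate 5 and 1.05 to 1.7 CPM in the others. Lrrc55, an auxiliary subunit of potassium channels, passed only as a rise of 1.87 with CL. It was at 0.391 to 1.09 CPM with saline, from 18 counts in all, and at 1.95 to 3.16 CPM with CL. Uninjected control mice, at 1.42 to 3.19 CPM, lay above all saline mice and overlapped the CL mice. What the low saline level adds to its difference was not tested. Fam101b, which binds the actin linker filamin, fell by 0.43 and rose by 0.71 with groups that did not overlap, a difference of -1.14 (SE 0.14, adjusted p = 7.23e-05).

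All 24 tested interferon response genes lay below 0, with a median of -0.39, and 2 were called. Rsad2, the antiviral protein viperin, was at 35 to 71.6 CPM in control mice and 40.1 to 73.1 CPM in C-3BO mice, which overlapped. It rose with CL, from 28.4 to 45.6 CPM with saline to 62.8 to 92 CPM, and its difference was -1.07 (edgeR adjusted p = 0.0288). Ifi44, an interferon-induced gene, had a difference of -1.36 (adjusted p = 0.0107). On the whole list 10 of 24 genes fell in C-3BO mice, beside 20% of all genes, and 4 rose with CL, beside 12.9%. The median CL effect of the list was -0.11, so that a rise with CL was not its general pattern. Both genes were called without C-3BO replicates 4 and 5, where 23 of 25 differences lay below 0, and the fit to all 40 libraries called none of the list.

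Members of the cAMP pathway differed in few places. Rgs2, which speeds the shut-off of G proteins, was at 230, 320, 282, 171 and 247 CPM in control mice and at 90, 69.6, 80.9, 42.3 and 41.4 CPM in C-3BO mice. With saline it was at 220, 262, 312, 227 and 325 CPM and with CL at 140, 213, 123, 200 and 255 CPM. C-3BO and control mice did not overlap, CL and saline mice did, and the difference was -1.40 (SE 0.30, edgeR adjusted p = 0.0163). Gnai2, an inhibitory G protein subunit, had -0.55 (adjusted p = 0.048). These were the 2 edgeR calls among 29 tested receptors, cyclases and G proteins, of which 6 had an unadjusted p under 0.05. DESeq2 called 4 of the list and limma 2, and its median was 0.0024. Neither gene was called in edgeR without C-3BO replicates 4 and 5 (adjusted p = 0.0597 and 0.135).

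Akap5, which anchors protein kinase A, was the only edgeR call among 17 protein kinase A genes, at -1.50 (SE 0.23, adjusted p = 0.000673), and was called in both fits. It was at 20.8 to 29.8 CPM in control mice and 13.3 to 22.9 CPM in C-3BO mice, and at 24.6 to 37.9 CPM with CL against 8.69 to 18.4 CPM with saline. C-3BO replicate 3 alone reached into the control range, and every CL mouse exceeded every saline mouse. All control mice also lay above all saline mice, and what this gap adds to the difference was not tested. Of 14 phosphodiesterases, which break down cAMP, none was called in edgeR, where 5 had an unadjusted p under 0.05, and 1 was called in DESeq2 and in limma.

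The larger C-3BO effects included genes that both treatments raised. Rbp4 (NM_001159487, minus strand of chromosome 19 from 38191110 to 38199811), the carrier of retinol in blood, was at 28.6, 24.3, 27.5, 35.8 and 24.3 CPM in control mice and at 425, 432, 495, 489 and 491 CPM in C-3BO mice. With saline it was at 30.3, 33, 46.2, 50 and 47 CPM and with CL at 245, 295, 274, 223 and 208 CPM. Every C-3BO mouse lay above every CL mouse, and both treated groups lay above their controls. It rose by 4.05 and by 2.62, a difference of 1.42 (SE 0.19, edgeR adjusted p = 0.00021).

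The 22 tested cholesterol synthesis genes had a median difference of 0.13. Of these, 11 rose in C-3BO mice, beside 18.3% of all genes, and 1 fell, Fdft1. With CL 8 rose, beside 12.9% of all genes, and 2 fell. Fdft1, the squalene synthase, fell in both treatments, by 1.25 in C-3BO mice and by 0.50 with CL, and its difference of -0.75 (adjusted p = 0.0166) had an adjusted p of 0.0601 without C-3BO replicates 4 and 5.

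Ttc7, a protein of the scaffold that places a phosphatidylinositol kinase at the membrane, was at 10.9, 10.4, 12.7, 12.5 and 13.4 CPM in control mice and at 44.8, 63.6, 48.1, 60.7 and 41.1 CPM in C-3BO mice. With saline it was at 13.1, 15.7, 16.1, 8.69 and 12.4 CPM and with CL at 15.9, 17, 17.1, 23.2 and 25.2 CPM. C-3BO mice lay above all other mice, and CL and saline mice overlapped. The difference was 1.60 (SE 0.22, adjusted p = 0.000288). Dusp15, a dual specificity phosphatase, rose by 5.64 in C-3BO mice, to 15 to 31 CPM, and by 2.15 with CL, to 2.8 to 8.67 CPM. Chosen after their values were seen, Ffar4, a receptor for long chain fatty acids, and Hspb8, a small heat shock protein, rose in both treatments, with called differences of 1.45 and 1.26.

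A further set passed only as a rise in C-3BO mice. Emb, a membrane partner of lactate and pyruvate transporters, was at 2.35 to 3.29 CPM in control mice and 7.47 to 37.1 CPM in C-3BO mice, with 2.3 to 6.63 CPM under CL and 3.52 to 14.1 CPM under saline. Its difference was 3.05 (SE 0.56, adjusted p = 0.00411). Ankrd33b, an ankyrin repeat protein, had 2.60 (adjusted p = 0.0193), and Epdr1, a secreted protein of the ependymin family, had 2.02 (adjusted p = 0.0137). Cdca7l, a nuclear protein, had 1.84 (adjusted p = 0.0303) and Lhfpl4, a membrane protein, had 1.66 (adjusted p = 0.0337). For Cdca7l all CL mice, at 2.174 to 4.421 CPM, exceeded all saline mice, at 1.624 to 2.173 CPM. Its CL effect of 0.83 had an edgeR adjusted p of 0.0606.

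Cebpb, a transcription factor of adipocyte differentiation, was at 34.3, 42.4, 85.3, 98.9 and 102 CPM in control mice and at 286, 170, 168, 210 and 299 CPM in C-3BO mice. It was at 110, 111, 67.5, 151 and 107 CPM with saline and at 131, 123, 103, 92.8 and 85.3 CPM with CL. The C-3BO mice lay above all others. Its difference was 1.63 (SE 0.36, adjusted p = 0.0178), with an adjusted p of 0.0564 without C-3BO replicates 4 and 5.

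Some larger effects came with a fall under CL. Cfd, the adipokine adipsin, was at 544, 1613, 930, 928 and 1187 CPM with saline and at 318, 249, 234, 301 and 407 CPM with CL. It was at 585, 540, 1045, 719 and 1092 CPM in control mice and at 747, 1013, 710, 262 and 548 CPM in C-3BO mice. All CL mice lay below all saline mice, while C-3BO and control mice overlapped. Its difference of 1.51 (SE 0.40, edgeR adjusted p = 0.0499) was just inside the threshold, and was 1.86 (adjusted p = 0.0123) without C-3BO replicates 4 and 5. Cfd was called in 12 of 31 settings of the analysis, with an adjusted p up to 0.104.

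Mc2r, the Gs-coupled receptor for adrenocorticotropic hormone, was at 4.42 to 9.71 CPM with saline and at 0.932 to 2.48 CPM with CL, and at 2.18 to 3.85 CPM in control mice and 1.98 to 5.26 CPM in C-3BO mice. All CL mice lay below all saline mice, and its difference was 2.15 (SE 0.44, adjusted p = 0.0114). Btc, the growth factor betacellulin, fell by 1.69 with CL and had a difference of 1.68 (adjusted p = 0.0327). Its starting level differed between cohorts, at 32.5 to 39.4 CPM with saline and 18.9 to 31.05 CPM in control mice. C-3BO mice spread from 9.9 to 45.1 CPM. Wscd2 rose by 1.37 in C-3BO mice and fell by 1.23 with CL, a difference of 2.60 (SE 0.38, adjusted p = 0.000619), although C-3BO replicate 1, at 6.22 CPM, lay among the control mice.

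**Figure D3:**
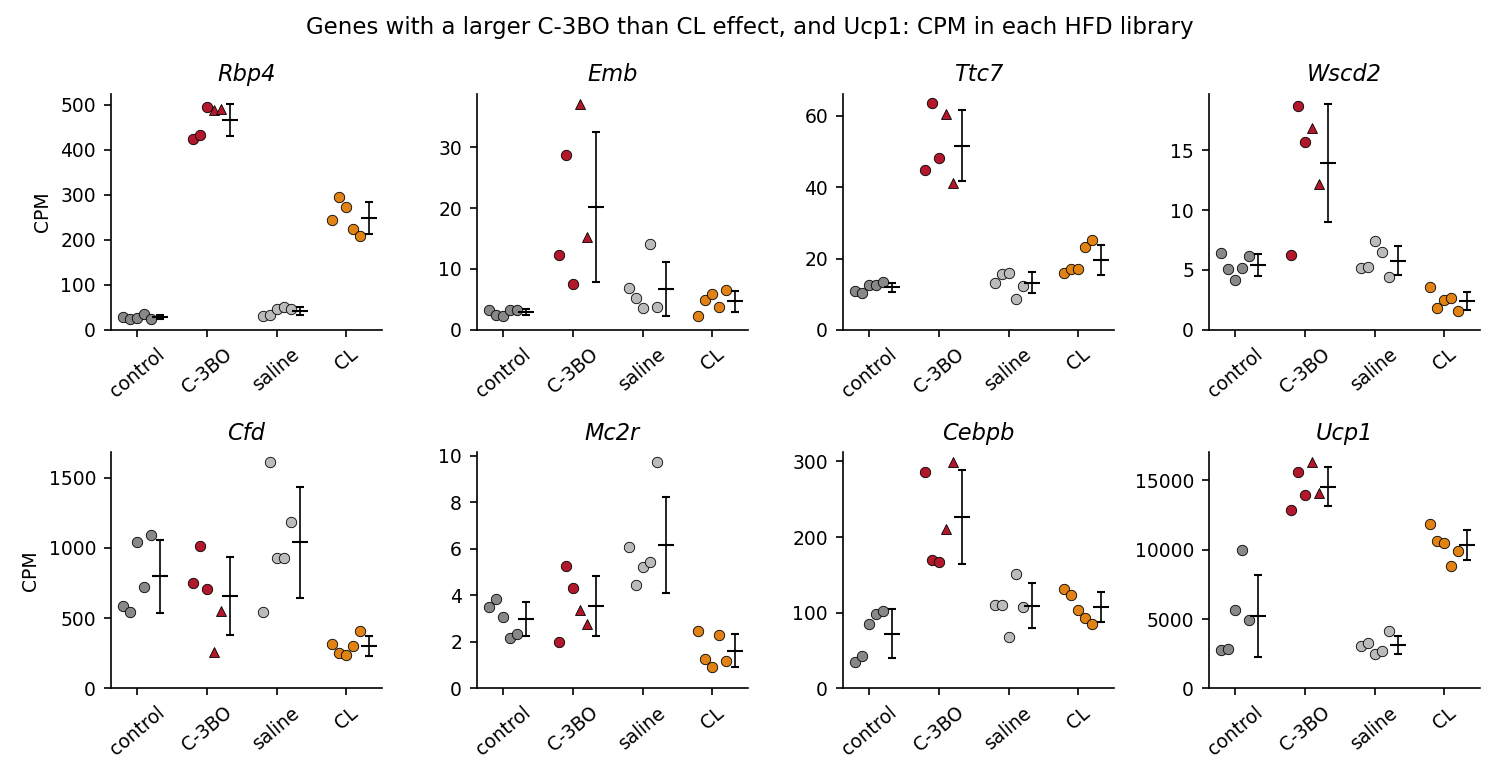
CPM of 7 genes with a larger C-3BO than CL effect, and of Ucp1, is plotted for each HFD library in the 4 groups, with the mean and SD of 5 mice and C-3BO replicates 4 and 5 as triangles. Rbp4 rises in both treatments and further in C-3BO mice, Emb rises in C-3BO mice, Cfd and Mc2r fall with CL, and Ucp1 rises in both.

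Liver genes among the larger effects depended on C-3BO replicates 4 and 5. Of 28 tested liver transcripts 7 were called larger in edgeR, 12 in DESeq2 and none in limma with quality weights, with a median of 4.80. Without those replicates none was called in edgeR, 1 had an unadjusted p under 0.05, and the median was -0.039. The list summed to 103, 107 and 147 CPM in C-3BO replicates 1 to 3, to 734 and 739 CPM in replicates 4 and 5, and to 32.8 to 54.2 CPM in control mice. The 3 epididymal transcripts tested were called in DESeq2 but not in edgeR, where all 3 had an unadjusted p under 0.05, or limma. They had a median of 7.485 over all libraries and -0.54 without those replicates.

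Some genes with roles in liver and in fat lay between. Cyp4a10 and Cyp4a14, fatty acid hydroxylases and PPAR targets, were called larger over all 20 libraries and not without C-3BO replicates 4 and 5. Azgp1, an adipokine that liver also makes, was at 1.55, 5.14 and 3.04 CPM in C-3BO replicates 1 to 3, 11.4 and 9.43 CPM in replicates 4 and 5 and at most 0.188 CPM in control mice, and was called in both fits. Pigr, the transporter of polymeric immunoglobulins, had no counts in control mice, 0.424, 0.818 and 0.633 CPM in C-3BO replicates 1 to 3 and 10.5 CPM in replicates 4 and 5. Both were also present in saline and CL mice, at 1.09 to 9.6 CPM, and the part of the liver transcripts in their differences was not tested.

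Most other functions showed no called difference in edgeR. There was none among 36 subunits of respiratory complex I, 76 mitochondrial ribosomal proteins, 37 proteasome subunits, 36 genes of glucose use, 21 of de novo lipogenesis and 20 of macrophages, of which 2, 4, 0, 2, 1 and 0 had an unadjusted p under 0.05, and DESeq2 and limma called none of them. In complex I, 19 genes rose in C-3BO mice and 12 with CL, beside 18.3% and 12.9% of all genes, and the median difference was 0.08. Of the 20 macrophage genes, 6 fell in C-3BO mice and 12 with CL, beside 20% and 12.7% of all genes, with a median difference of 0.21. Their summed level was 196.2 to 444.6 CPM in control mice and 607.3 to 1367 CPM in saline mice, so that the starting level differed between cohorts. Of 11 white adipocyte genes Cfd and Rbp4 were larger and Mest smaller. Among 22 genes of the integrated stress response Cebpb was larger and Ddit3, the transcription factor CHOP, smaller at -0.69 (adjusted p = 0.0177), and neither was called without C-3BO replicates 4 and 5.

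**Figure D4:**
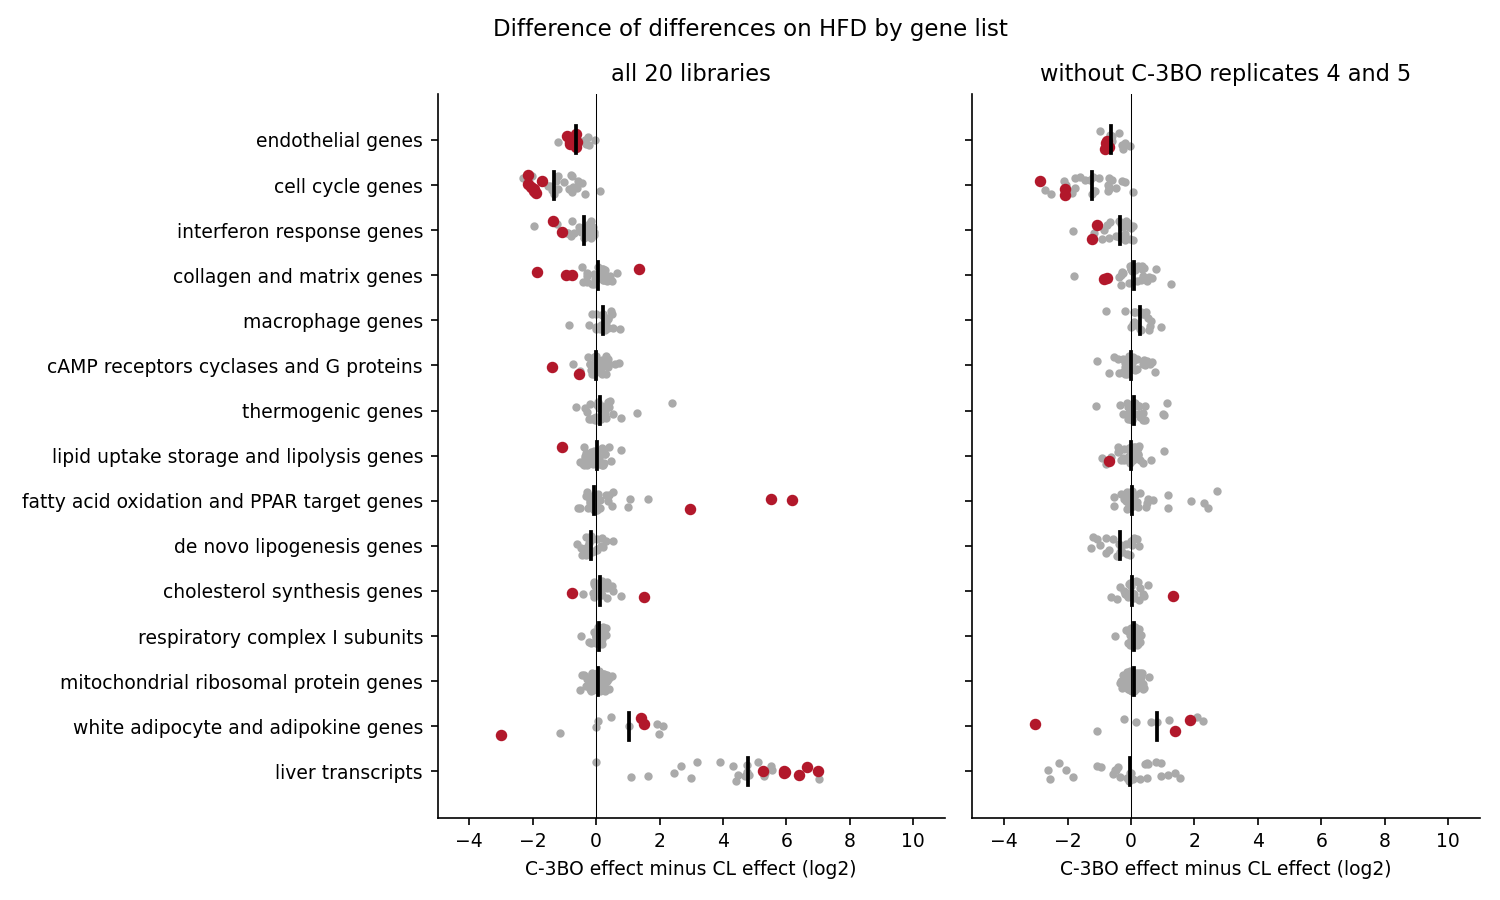
Each point is 1 tested gene of the list named at the left, at its C-3BO effect minus CL effect on the log2 scale, over all 20 libraries in the left panel and without C-3BO replicates 4 and 5 in the right panel. Red points were called at an adjusted p under 0.05 and black bars are list medians; those of endothelial and cell cycle genes lie below 0 in both panels, and that of the liver transcripts moves from 4.80 to -0.039.

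The same difference of differences was taken in the 20 libraries of chow-fed mice, which the HFD comparison did not use. They held the same 4 groups, 5 libraries each, with CL or saline again given for 9 days. On chow, 300 of 12859 genes had a larger (2.33%) and 269 a smaller (2.09%) C-3BO effect. Of the genes called on HFD and tested on chow, 58 of 69 larger ones (84.1%) and 170 of 185 smaller ones (91.9%) kept their sign, beside 59.5% and 60.1% of all genes with a difference above or below 0 on HFD. Called with the same sign on both diets were 19 of the larger (27.5%) and 35 of the smaller (18.9%) genes, beside 4.03% and 3.51% of all genes, and none was called with the other sign. Chow CL replicate 5 stood apart, with Ucp1 at 1537 CPM against 5630 to 8441 CPM in the other chow CL mice and 1200 to 1783 CPM in chow saline mice. Without it, a choice made after seeing the data, 59 of 69 and 172 of 185 kept their sign.

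Genes called on both diets included Ttc7 at 1.93 on chow, Cebpb at 2.19, Cfd at 1.56 and Loxl1 at 1.12 among the larger ones. Among the smaller ones were Rad51ap1 at -3.67, Top2a, which untangles DNA, at -2.93, Rgs2 at -2.56, Mki67 at -2.39, Akap5 at -1.68, Vash1 at -1.54, Cd34 at -1.48, Ccnd1 at -1.38 and Col4a1 at -0.72. The endothelial list had no call on chow in edgeR, 3 genes with an unadjusted p under 0.05 and a median of -0.14, and Aplnr had -1.16 with an adjusted p of 0.0642 there. The cell cycle list had 6 calls among 28 genes and a median of -1.38. Rbp4 had 0.30 on chow and was not called. Skeletal muscle transcripts summed to 1101 to 12770 CPM in chow control mice and 19.9 to 200.8 CPM in chow CL mice, and their part in the chow values was not tested.

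**Figure D5:**
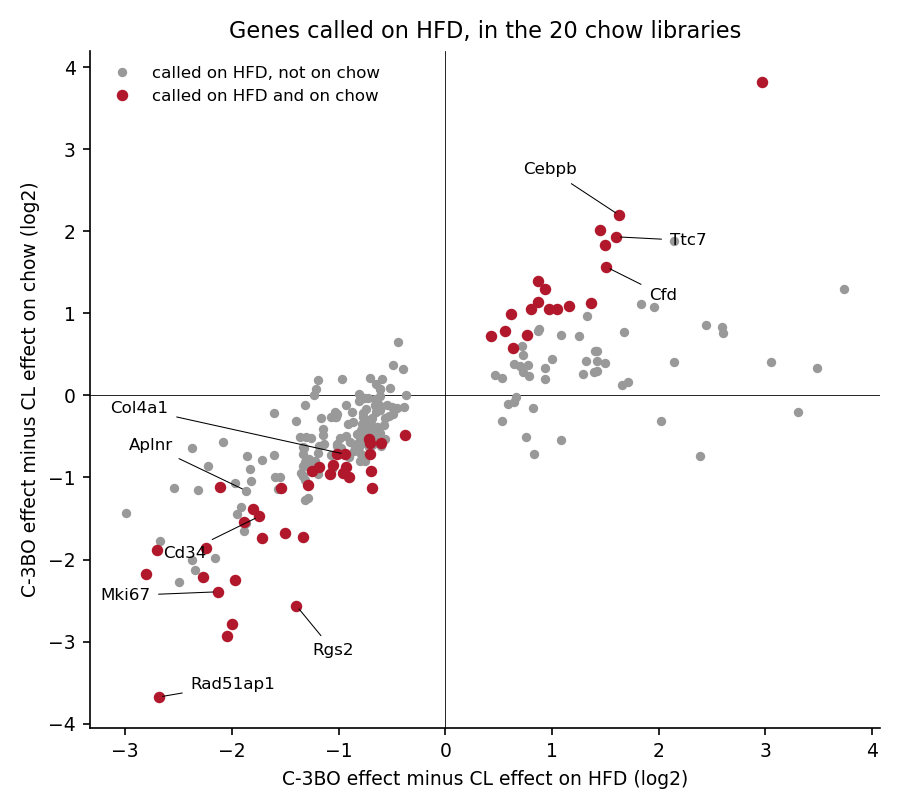
Each point is 1 of the 253 genes other than Gpr3 that were called on HFD and tested on chow, with its difference of differences on HFD on the horizontal axis and on chow on the vertical axis, both log2. Red points were called on both diets, and most points lie in the lower left and upper right corners.

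A difference of differences can come from the control groups as well as from the treated groups. Control and saline mice differed more, on the log2 scale, than C-3BO and CL mice for 33 of the 86 larger and 54 of the 187 smaller genes, beside 45.7% of all genes. Col1a1, the main chain of type I collagen, averaged 104 ± 22.1 CPM (SD, n = 5) in control mice and 596 ± 207 CPM (SD, n = 5) in saline mice, and its difference of differences was not called (0.65, edgeR adjusted p = 0.435).

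The promoters of the called genes were searched for the cAMP response element, the site of the factor CREB, which protein kinase A activates. Promoter windows of RefSeq (GRCm38.p6, 250 bases before to 50 bases after the start) were found for 37 of the 43 larger and 59 of the 79 smaller genes called in both fits. The core of the element, TGACG on either strand, occurred in at least 1 window of 29.7% of the larger and 25.4% of the smaller genes, beside 35% of 9408 tested genes with a window. The whole element TGACGTCA, which contains the core, occurred in no larger gene and in 1 smaller gene, Fscn1, which encodes the actin bundler fascin (1.69%, beside 3.5%). No called gene held TCAAGGTCA, the element of estrogen-related receptors, which 0.33% of all genes held. A PPAR element, made of direct AGGTCA copies 1 base apart, was in no called gene and in 0.0213% of all genes. Rbp4 (chr19:38124762-38125061, minus strand) is shown as a gene that rose further in C-3BO mice, Kif23 (chr9:61946750-61947049, minus strand) as one with opposite effects, and Fscn1 (chr5:142960105-142960404, plus strand), with a difference of -1.19, for its whole element. Capitals mark the core or the whole element, and a match is a description, not a site.
Rbp4: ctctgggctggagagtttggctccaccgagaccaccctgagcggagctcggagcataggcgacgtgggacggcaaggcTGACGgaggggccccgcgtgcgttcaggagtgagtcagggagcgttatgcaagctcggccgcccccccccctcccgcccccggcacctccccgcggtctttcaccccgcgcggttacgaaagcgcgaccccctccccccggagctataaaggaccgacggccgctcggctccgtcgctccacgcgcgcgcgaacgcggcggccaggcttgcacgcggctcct
Kif23: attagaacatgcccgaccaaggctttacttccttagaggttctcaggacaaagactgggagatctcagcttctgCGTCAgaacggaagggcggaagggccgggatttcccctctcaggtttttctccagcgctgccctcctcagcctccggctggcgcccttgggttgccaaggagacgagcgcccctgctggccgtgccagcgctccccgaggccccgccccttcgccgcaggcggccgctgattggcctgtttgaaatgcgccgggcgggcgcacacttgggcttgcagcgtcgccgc
Fscn1: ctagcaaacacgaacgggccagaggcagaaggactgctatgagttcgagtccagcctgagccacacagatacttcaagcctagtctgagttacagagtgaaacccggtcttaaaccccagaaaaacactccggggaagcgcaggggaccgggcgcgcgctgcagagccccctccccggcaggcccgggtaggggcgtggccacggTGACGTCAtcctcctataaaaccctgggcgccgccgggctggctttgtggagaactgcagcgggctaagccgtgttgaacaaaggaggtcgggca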

How the data were processed

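The authors prepared poly(A) TruSeq libraries, mapped reads to mm9 with STAR, used HOMER tag directories and iRNA-seq to count reads on RefSeq exons, and the deposited values are these raw counts per gene and mouse. Versions and strandedness are not given in the sources used here. Deposited exon lengths were not used.

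The 20 HFD libraries were fitted with 1 mean per group by edgeR 4.0.16 (quasi-likelihood test, TMM factors, filterByExpr), and p-values were adjusted over all tested genes by Benjamini and Hochberg. A gene was called at an adjusted p under 0.05, with no minimum size. Effects are log2 fold changes, their standard error is the absolute effect over the root of its F statistic, and CPM are counts over the library total times its TMM factor. The chow libraries were fitted apart. R 4.3.3, limma 3.58.1, DESeq2 1.42.0, pandas 2.3.3 and matplotlib 3.10.9 were used. Tested on simulated counts for the HFD difference, the fit recovered 63% of 100 planted differences of 1 and 91% of 100 of 2 on the log2 scale, with 7 false among 161 calls. Planted genes averaged over 2 CPM and changed in the C-3BO group only. Otherwise each gene had 1 mean across groups, with no gap between cohorts and no liver transcripts confined to certain libraries. These rates thus do not cover genes under 2 CPM or those features of the data.

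The comparison, the alternatives and the 43 gene lists were chosen with earlier results of these data known. Named by rule were Gpr3, the landmarks Ucp1, Dio2, Ppargc1a, Elovl3, Fgf21, Adrb1 and Adrb3, and the 15 largest differences in each direction that were called with and without C-3BO replicates 4 and 5, had at least 10 counts in all libraries of a group and were on no liver, epididymis or muscle list. Also named were up to 4 called members of each list, Alb with 3 extreme members in each direction of the liver, epididymis and muscle lists, and the 5 called genes of opposite direction with the smallest p. Alternatives were DESeq2, limma voom with quality weights, RLE factors, library totals, other filters, all 40 libraries, a liver score as covariate, the replicate number as a block and single libraries left out. Where same-numbered libraries were compared, their correlations lay between -0.151 and 0.185, so the numbers were not taken as pairs. Some named genes are not reported here.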

Additional observations from a re-analysis of the deposited data

Results flagged for a closer look

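In 19 of 288 groups of 5 libraries, for 72 named genes, 1 library was farther from the others, relative to the range of the group, than Dixon's 95% critical value for 5 samples, a level that is passed by chance in about 1 in 20 groups. C-3BO replicate 3 was high for Aplnr (144 CPM, the others 122 to 128), Cd34 (58.8 CPM, the others 47.6 to 50.4) and Akap5 (22.9 CPM, the others 13.3 to 14.6), and replicate 2 for Pecam1 (287 CPM, the others 250 to 257). C-3BO replicate 5 was high for F2rl3 (6 CPM, the others 1.05 to 1.7) and low for Fdft1 (21.4 CPM, the others 29.1 to 31.8).

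Muscle transcripts were high in saline replicate 3, with Mybpc2 at 49.2 CPM, Myoz1 at 32.4 CPM and Cacna1s at 24.4 CPM. Mybpc2 was also high in CL replicate 1 at 26.0 CPM, and Cacna1s in control replicate 5 at 2.84 CPM and C-3BO replicate 4 at 1.26 CPM. In the injected groups, saline replicate 4 was high for Robo4 (92.4 CPM) and low for Clca5 (1.09 CPM), saline replicate 5 was high for Serpinb6b (5.62 CPM), CL replicate 4 for Cd109 (22.6 CPM) and CL replicate 1 for Pigr (9.37 CPM). In control mice, replicate 3 was high for Dusp15 (1.25 CPM) and replicate 2 for Lrrc55 (3.19 CPM).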

How the results depend on the processing

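The larger and smaller differences, 86 and 187 in number, were 193 and 265 with DESeq2, 93 and 146 with RLE factors, 45 and 98 with at least 10 counts in every library, and 55 and 120 with the liver score as covariate. They were 48 and 91 without C-3BO replicates 4 and 5, 36 and 100 when saline replicate 4 was also left out, which was chosen after seeing the data, and 55 and 95 with a size over 1. With a replicate block, a fit that removes any shared effect of the replicate number, they were 122 and 189. Leaving out single libraries gave 41 to 142 larger and 105 to 275 smaller differences, lowest without control replicate 2 and highest without control replicate 4, whose Ucp1 was the highest of its group, and equally low for smaller differences without CL replicate 5. Endothelial calls ranged from 3 to 7 and cell cycle calls from 1 to 10. Of called genes tested on chow, 228 of 254 (89.8%) kept their sign, 126 of 136 (92.6%) without C-3BO replicates 4 and 5, where fewer genes were called, and 231 of 254 (90.9%) without chow CL replicate 5. No cause was tested.

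Signs turned for differences that were not called or that belong to transcripts of liver, epididymis or muscle. With single libraries, C-3BO replicates 4 and 5, or these and saline replicate 4 left out, the difference of Ucp1 ranged from -0.40 to 0.16 (highest without control replicate 4), that of Ppargc1a from -0.013 without C-3BO replicate 1 to 0.38 without replicates 4 and 5 (0.37 also without saline replicate 4) and that of Gc, a liver transcript, from -0.0046 to 7.18. Epididymal Adam7, Lcn9 and Lcn8 ranged from -0.048 to 7.51, -0.82 to 7.84 and -0.54 to 9.51, each lowest without C-3BO replicates 4 and 5, and were at -0.000385, -0.78 and -0.45 when saline replicate 4 was also left out. The muscle transcripts Myoz1 and Cacna1s ranged from -3.01 to 0.60 and from -4.14 to 1.56, both highest without control replicate 5, and Cacna1s was at -4.06 without C-3BO replicates 4 and 5 and saline replicate 4. Of the values of single genes under alternatives, 1960 kept their sign and their side of the threshold, 262 kept the sign and lost the call, 16 gained it and 16 turned. Depth limits genes near 1 CPM in saline replicate 4, where 3 counts stand for 3.26 CPM.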

Other observations

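Chow CL replicate 3 had Gpr3 at 8.66 CPM, while no other chow CL or chow saline library exceeded 0.67 CPM. The chow difference of differences of Gpr3 was 6.12 and was not called (edgeR adjusted p = 0.169), and Adrb3, called on chow at 1.04 (adjusted p = 0.0104), was not called on HFD at 0.73 (adjusted p = 0.297). Whether the chow and HFD differences differ from each other was not tested.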
